A study of Mus musculus with 8 samples.

Results

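The proteases that shed the outermost skin cells, and the inhibitors that hold them back, were followed in dorsal skin of hairless mice on a control and on a collagen diet. The set was given by name and holds 10 genes, the kallikrein-related peptidases *Klk5*, *Klk7*, *Klk8*, *Klk10*, *Klk11* and *Klk14*, the proteases *Asprv1* and *Casp14*, and the inhibitors *Spink5* and *Cst6*. Of these, 9 had a probe set annotated to that gene alone, out of 18193 such genes on the array, and *Klk14* was not analysed here. Where a gene had several probe sets, as *Casp14* did, the one of highest mean stood for it. All 9 also passed the filter on low levels, which kept 12735 genes.

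The skin came from female mice of the hairless strain Hos:HR-1, aged 21 weeks. From 9 weeks of age they had eaten for 12 weeks either the purified AIN-93G diet (control, 4 arrays) or that diet with fish scale collagen hydrolysate, peptides cut from collagen, at 2 g per 100 g (collagen diet, 4 arrays). The study design names 16 mice, 8 on each diet, and the labels call the arrays biological replicates of each diet without saying which mice each holds. The RNA was taken from whole powdered skin with all its layers and attached tissue, so that fewer cells of a type cannot be told apart from less RNA per cell.

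Corneocytes, the dead flat cells of the skin surface, are held together by corneodesmosomes and are shed when serine proteases of the kallikrein family cut those junctions. The proteases are made by granular keratinocytes, activate each other in a cascade, and are held in check by LEKTI, the product of *Spink5*, whose loss causes Netherton syndrome with premature shedding. Other enzymes of the same layers, SASPase (*Asprv1*) and caspase-14 (*Casp14*), process profilaggrin, and cystatin E/M (*Cst6*) inhibits the cysteine proteases cathepsin L and legumain.

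The 6 kallikrein genes of the set lie in a single cluster on mouse chromosome 7, where *Klk11* and *Klk10* are neighbours, as are *Klk8* and *Klk7*, while *Klk5* lies further along, beyond *Klk6* (order by RefSeq, GRCm38.p6). RefSeq promoter windows of 250 bases before the start site were used for 8 of the 10 genes, in 9 windows, since *Klk11* has 2 start sites. No window was used for *Spink5* or *Cst6*. The windows of 4 genes are shown. *Klk5* and *Asprv1* are those whose transcripts followed each other most closely over the arrays. *Klk10* had the largest SD of deposited values in the set, and *Klk7* is the chymotrypsin-like enzyme. Capitals mark matches on either strand to the CACCC box (CCACCC), which Krüppel-like factors bind, and to the GC box (GGGCGG) of the Sp1 family, and the sequences read 5′ to 3′ along the gene, here the plus strand. The windows are chr7:43842019-43842268 for *Klk5*, chr6:86627924-86628173 for *Asprv1*, chr7:43780804-43781053 for *Klk10* and chr7:43811044-43811293 for *Klk7* (GRCm38.p6).
Klk5: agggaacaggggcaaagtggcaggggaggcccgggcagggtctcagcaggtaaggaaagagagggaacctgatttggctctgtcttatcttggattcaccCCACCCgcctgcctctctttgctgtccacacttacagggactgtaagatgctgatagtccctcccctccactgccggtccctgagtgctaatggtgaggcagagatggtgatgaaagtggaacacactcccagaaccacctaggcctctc
Asprv1: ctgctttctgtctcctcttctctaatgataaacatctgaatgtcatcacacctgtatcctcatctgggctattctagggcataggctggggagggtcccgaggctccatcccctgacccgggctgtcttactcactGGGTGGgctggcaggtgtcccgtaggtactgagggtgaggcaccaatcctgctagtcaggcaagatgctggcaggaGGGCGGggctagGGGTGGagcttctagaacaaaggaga
Klk10: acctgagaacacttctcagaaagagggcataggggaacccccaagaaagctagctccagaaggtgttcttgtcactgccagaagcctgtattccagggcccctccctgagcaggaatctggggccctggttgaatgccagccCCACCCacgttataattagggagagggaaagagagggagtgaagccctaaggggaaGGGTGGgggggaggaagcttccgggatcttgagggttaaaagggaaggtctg
Klk7: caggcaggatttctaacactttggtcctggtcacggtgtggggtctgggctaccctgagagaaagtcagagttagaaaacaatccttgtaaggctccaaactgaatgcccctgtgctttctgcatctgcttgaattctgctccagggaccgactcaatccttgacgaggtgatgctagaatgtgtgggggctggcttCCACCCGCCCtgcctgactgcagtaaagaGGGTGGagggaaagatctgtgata

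The CACCC box was present in 7 of the 9 windows, against 28.1% of 32851 RefSeq promoter windows of the same length. In *Klk7* a CACCC box starting 53 bases before the start site overlapped a GC box starting 49 bases before it, and a further CACCC box started 24 bases before it. *Klk10* had CACCC boxes starting 108 and 52 bases before its start site, *Asprv1* 114 and 26 bases before it with a GC box at 38, and *Klk5* a single one 150 bases before it. The GC box stood in 3 of 9 windows against 32.7% of all. No window of the set held the AP-1 site TGANTCA (6.75% of all windows), the Grainyhead-like site AACNNGTT (3.64%) or a TATAAA box (12.4%). These are matches of letters in a window, and binding was not measured.

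The deposited values are log2 values that differed very little between arrays, with a median SD of 8.66e-06 over the 8 arrays for a probe set, so a difference is no fold change of RNA. The arrays are therefore compared for each gene in units of its pooled SD within the diets, as deviations from that gene's 8-array mean. Levels of different probe sets are not comparable, and only differences of the same probe set between arrays are read. The tissue is taken from the labels. On the control diet *Krt10* of the upper epidermis had a mean of 14.07 and *Krt5* of the basal layer 13.06. *Col1a1* and *Col1a2* of the dermis had means of 9.73 and 13.35, and *Acta1* of skeletal muscle 12.73. These means do not rank the layers, and signal over background was not used to tell presence.

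No protease or inhibitor of the set differed between the diets beyond the spread of its replicates. Of the 9 genes, 4 were higher and 5 lower on the collagen diet, against 45.5% of all genes tested higher, and their median difference was -0.10 SD, beside -0.08 SD over all genes tested. None of the 9 had an adjusted p below 0.05 in limma (0.0% of all 12735 genes did), none had an unadjusted p below 0.05 (5.36% of all genes), and none had arrays of one diet all on one side of the other diet (3.31% of all genes). With 4 arrays on each diet the 95% interval of a difference reached between 1.61 and 1.63 SD to either side of each gene's own estimate, from -3.14 to 0.09 SD for *Klk11* at one end of the set to -1.32 to 1.95 SD for *Casp14* at the other.

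Among the trypsin-like kallikreins, *Klk5*, which can start the cascade by activating itself, deviated by 0.58, 1.22, -1.30 and -0.31 SD in control replicates 1 to 4 and by 1.20, -0.18, -0.29 and -0.92 SD in collagen replicates 1 to 4. Control replicate 3 was its lowest array, and the highest values came from both diets. Its mean level was 10.23, with a difference of -0.10 ± 0.67 SD (SE, n = 4 per diet; adjusted p = 0.999, limma). *Klk8*, neuropsin, stood at 0.65, 1.48, -1.27 and 0.07 SD on the control diet and at 0.90, -0.52, -1.03 and -0.28 SD on the collagen diet. Its array order resembled that of *Klk5*, with control replicate 2 highest and control replicate 3 lowest. The difference was -0.46 ± 0.68 SD (SE, n = 4 per diet; adjusted p = 0.999, limma) at a mean level of 10.71, and leaving out 1 array gave -1.24 SD (without control replicate 3) to -0.05 SD (without control replicate 2).

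*Klk11* came nearest to a difference between the diets, on the lower side. Its deviations were 0.72, 0.91, -0.06 and 1.47 SD on the control diet and -0.32, -0.01, -2.65 and -0.06 SD on the collagen diet. The top 3 arrays were all control arrays and all 4 collagen arrays were below the gene's mean, but control replicate 3 lay within the collagen arrays, so the diets overlapped. The difference was -1.52 ± 0.67 SD (SE, n = 4 per diet; unadjusted p = 0.0607, adjusted p = 0.958, limma), or -0.000123 on the deposited log2 scale at a mean of 8.61. Leaving out 1 array at a time gave -1.79 to -1.25 SD with unadjusted p between 0.0515 and 0.138. After median centring it was -0.71 SD (unadjusted p = 0.321, adjusted p = 0.998, limma) and after quantile normalization -0.99 SD (unadjusted p = 0.192, adjusted p = 1.0, limma). Without control replicate 3 and collagen replicate 3, a pair picked after seeing that each was the lowest array of several genes of the set, it was -3.87 SD with an unadjusted p of 0.00509 and an adjusted p of 0.953 (limma). Since that pair was picked by the values of these genes, its result supports nothing here. Without control replicate 4 and collagen replicate 1, the arrays low in skeletal muscle genes, the difference was -1.27 SD.

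*Klk10*, another gene of the cluster, had the largest SD of deposited values in the set (0.0038 over 8 arrays). Since probe sets are not comparable, this does not show that its RNA varied most. Its log2 values were 8.752, 8.748, 8.746 and 8.752 on the control diet and 8.752, 8.751, 8.741 and 8.747 on the collagen diet. Collagen replicate 3 was far the lowest, and 3 arrays of the control diet lay among the first 5. The difference was -0.46 ± 0.67 SD (SE, n = 4 per diet; adjusted p = 0.999, limma), and without collagen replicate 3 it was 0.12 SD. *Klk7*, the chymotrypsin-like stratum corneum enzyme that cuts corneodesmosin, stood at -0.25, 0.51, -1.11 and 0.79 SD on the control diet and 1.42, 0.09, -1.34 and -0.10 SD on the collagen diet. The extremes of both ends came from the collagen diet, collagen replicate 1 highest and collagen replicate 3 lowest. Its difference was 0.03 ± 0.67 SD (SE, n = 4 per diet; adjusted p = 0.999, limma) at a mean level of 13.09.

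The profilaggrin proteases were near the middle as well. *Asprv1*, a retroviral-like aspartic protease, deviated by 0.54, 0.96, -1.68 and 0.00 SD on the control diet and by 1.07, 0.25, -0.33 and -0.81 SD on the collagen diet, a difference of 0.09 ± 0.67 SD (SE, n = 4 per diet). *Casp14*, a caspase of cornification that takes no part in ordinary apoptosis, deviated by 0.64, 0.65, -1.61 and -0.31 SD on the control diet and by 0.79, 0.84, 0.15 and -1.15 SD on the collagen diet, a difference of 0.32 ± 0.68 SD (SE, n = 4 per diet). Control replicate 3 was the lowest array of both genes and collagen replicate 4 the next lowest. The further probe set of *Casp14* differed by 0.62 SD, and its lowest array was collagen replicate 3, with control replicate 3 next. Both genes had an adjusted p of 0.999 in limma.

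Of the inhibitors, *Spink5* had the smallest difference of the set. Its log2 values were 10.7036, 10.7018, 10.7010 and 10.7019 on the control diet and 10.7032, 10.7029, 10.7001 and 10.7022 on the collagen diet. The highest array was control replicate 1 and the lowest collagen replicate 3, and the means of the diets differed by 0.01 ± 0.67 SD (SE, n = 4 per diet; adjusted p = 0.999, limma). *Cst6* deviated by 0.36, 0.46, 0.12 and 0.72 SD on the control diet and by 0.79, 0.42, -2.32 and -0.55 SD on the collagen diet. The 4 control arrays lay close together, and the collagen arrays held both the highest and the lowest value. The difference was -0.83 ± 0.67 SD (SE, n = 4 per diet; adjusted p = 0.999, limma), -0.41 SD without collagen replicate 3, -1.37 SD without collagen replicate 1 and -0.36 SD after median centring.

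**Figure D1:**
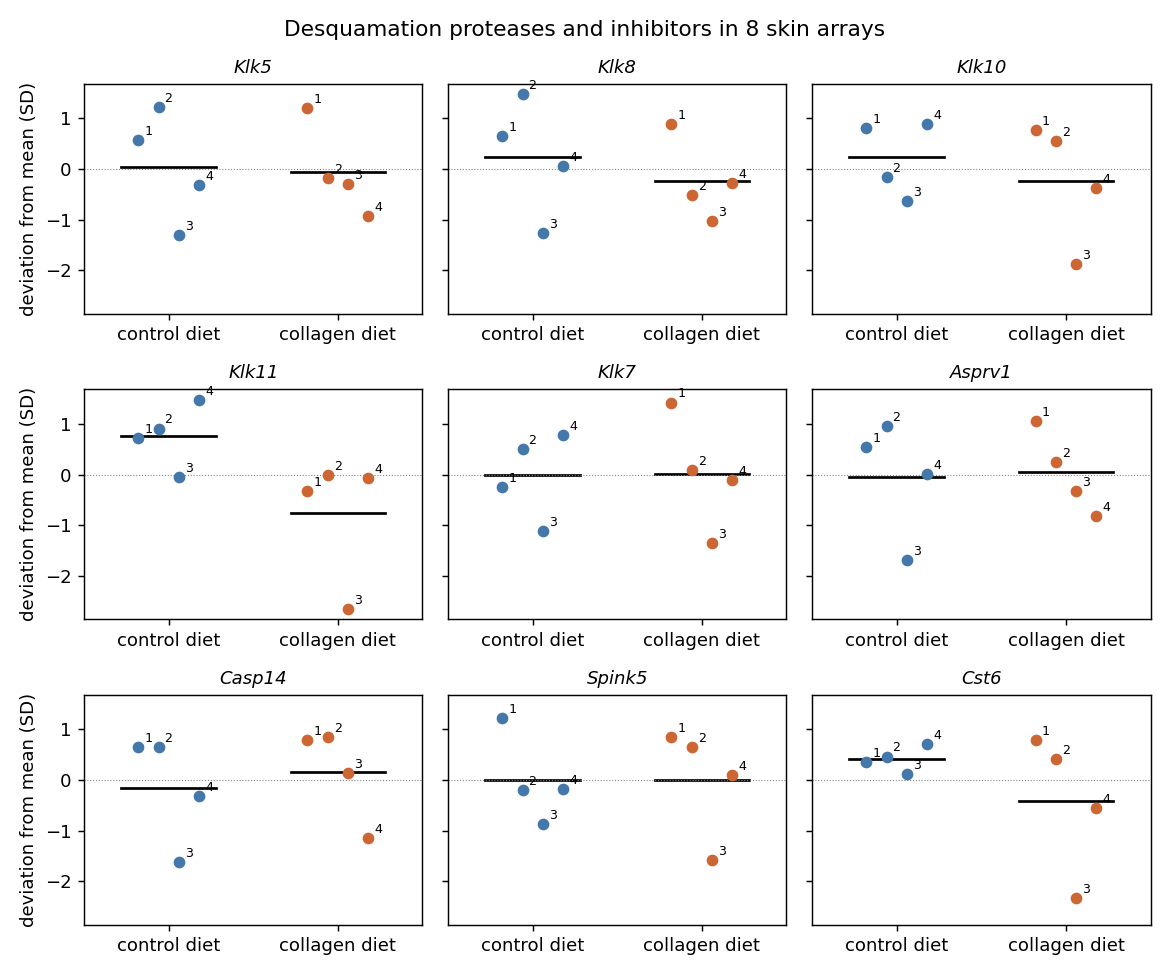
Deviation of each array from the gene's mean over 8 arrays, in pooled within-diet SD (vertical axis), for the 9 genes on the control and collagen diets; points are arrays numbered by replicate and bars are means of 4. The diets overlap in every panel, control replicate 3 is lowest in 4 genes and collagen replicate 3 in the other 5.

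**Figure D2:**
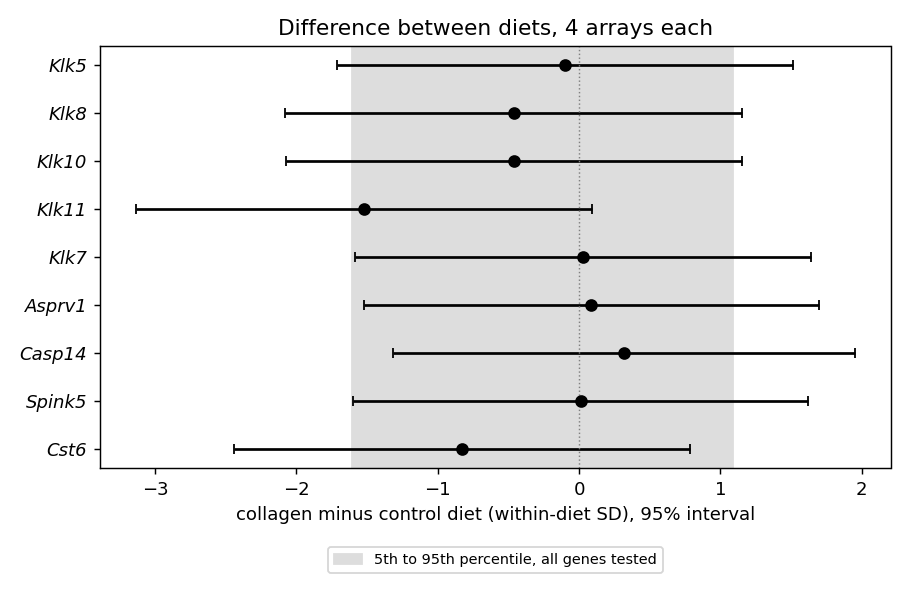
Collagen minus control diet for each of the 9 genes in within-diet SD (horizontal axis), as points with 95% intervals from limma (4 arrays per diet); the grey band spans the 5th to 95th percentile of this difference over the 12735 genes tested, -1.60 to 1.09 SD. Every interval holds 0, and *Klk11* lies lowest at -1.52 SD.

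In none of the 4 pairs that could be formed was a difference between the diets called in the balance of protease to inhibitor. The protease minus its inhibitor was taken in each array, both in SD units. The diets were compared by an exact two-sided permutation test over all 70 assignments of 8 arrays, which cannot give a p below 0.0286. After adjustment over the 4 pairs, a pair alone could therefore not pass at 0.05, whatever its values. *Klk5* minus *Spink5* had a mean of 0.05 ± 0.94 SD on the control diet and -0.05 ± 1.08 SD on the collagen diet (SD, n = 4 each; exact permutation p = 0.857, adjusted p = 0.971 over the 4 pairs). *Klk7* minus *Spink5* was -0.01 ± 1.11 SD and 0.01 ± 0.50 SD (SD, n = 4 each; exact permutation p = 0.971, adjusted p = 0.971).

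The pairs of *Cst6* with its target enzymes lay higher on the collagen diet, within the spread of the arrays. *Lgmn*, legumain, minus *Cst6* was -1.21, -0.11, -0.78 and -1.33 SD on the control diet and -1.93, 0.63, 2.31 and 2.42 SD on the collagen diet. Collagen replicate 1 was the lowest of all arrays and the other collagen arrays were the highest, a difference of 1.72 SD (exact permutation p = 0.171, adjusted p = 0.343, n = 4 per diet). Leaving out 1 array at a time gave 1.23 to 3.31 SD with exact permutation p from 0.0286 to 0.429 (adjusted p from 0.114 to 0.714), the highest value being that without collagen replicate 1. *Ctsl*, cathepsin L, minus *Cst6* differed by 0.66 SD (exact permutation p = 0.143, adjusted p = 0.343, n = 4 per diet). Leaving out 1 array at a time gave 0.32 SD (without control replicate 2) to 1.06 SD (without collagen replicate 3), with exact permutation p from 0.0286 to 0.371 (adjusted p from 0.114 to 0.714), and median centring gave 0.19 SD. Taken alone, *Lgmn* differed by 0.89 SD and *Ctsl* by -0.17 SD, neither passing in limma (adjusted p = 0.999 each).

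**Figure D3:**
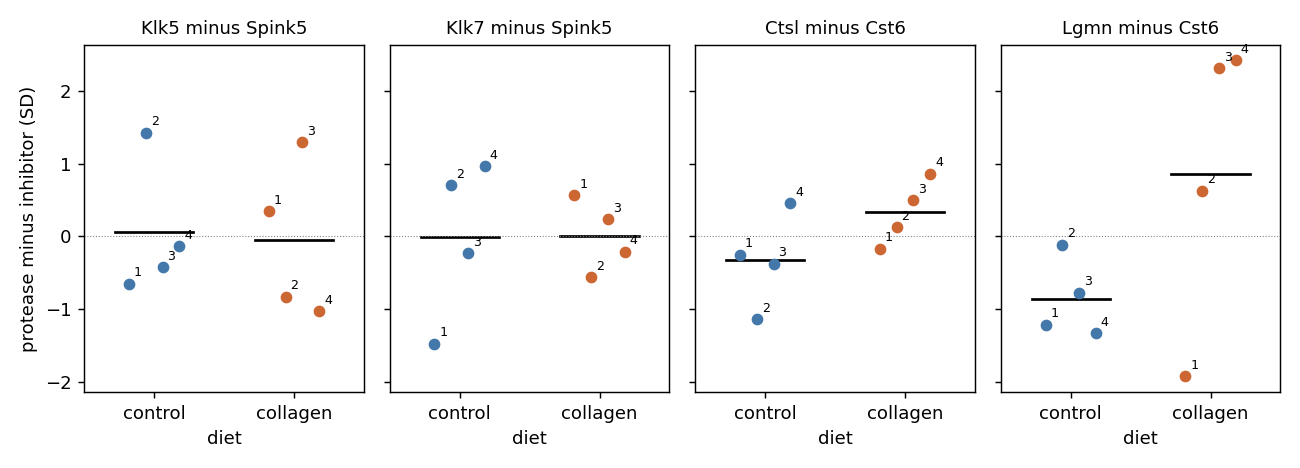
Protease minus inhibitor in each array, each in its within-diet SD (vertical axis), for 4 pairs on the control and collagen diets; points are arrays numbered by replicate, bars are means of 4. The diets overlap in every pair, and collagen replicate 1 is the lowest array of *Lgmn* minus *Cst6* at -1.93 SD.

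In the values as deposited, some genes of the set rose and fell together from array to array, *Klk5* with *Asprv1* most closely. Others showed little relation, such as *Klk11* with *Casp14* (r = 0.01). All 36 pairs had a positive Pearson r over the 8 arrays, from 0.01 to 0.96 with a median of 0.58, beside a median of 0.01 over all pairs of the 12735 genes tested. With the mean of each diet removed the median was 0.64, for which no test was made. By an exact permutation test adjusted over the 36 pairs, 7 pairs passed at 0.05 by Pearson's r and 2 by Spearman's rho. The lowest r of the 7 was 0.85, a value reached by 0.703% of all gene pairs. The points share array and hybridisation, and the pairs share genes. After each array was centred on its median, *Klk11* with *Casp14* had r = 0.88 and the median over the 36 pairs was 0.83. Centring moves every gene of an array by the same amount, and array quartiles differed by up to 0.0017. The SD over 8 arrays was 2.45e-05 for *Casp14* and 9.99e-05 for *Klk11*, so centring can add a shift shared by all genes. How far it did so was not tested. No median over all gene pairs was computed for that setting.

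The closest pair was *Klk5* with *Asprv1*, at r = 0.96 (exact permutation p = 9.92e-05, adjusted p = 0.00357) and rho = 0.95 (exact permutation p = 0.00114, adjusted p = 0.0402). Without the 2 arrays farthest from the median of *Klk5*, r was 0.94. *Asprv1* with *Casp14* followed at r = 0.92 (adjusted exact permutation p = 0.0272) and rho = 0.83 (adjusted exact permutation p = 0.111), with r = 0.67 over the 6 arrays left in the same way. *Klk5* with *Klk8* (r = 0.89), *Klk8* with *Asprv1* (0.85) and *Klk5* with *Casp14* (0.85) also passed by Pearson's r, and over 6 arrays gave 0.74, 0.74 and 0.89. These 4 genes had control replicate 3 as their lowest array in the probe sets used, though not in the further probe set of *Casp14*.

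*Klk10* passed with both inhibitors, *Cst6* at r = 0.90 and *Spink5* at r = 0.86 (adjusted exact permutation p = 0.0416 each), while its rho of 0.76 and 0.71 did not pass (adjusted exact permutation p = 0.189 and 0.207). Over the 6 arrays left without the 2 farthest from the median of *Klk10*, r was 0.75 and 0.52, so the second rests largely on those arrays. *Klk7* with *Cst6* passed by rank (rho = 0.93, adjusted exact permutation p = 0.0402) and not by Pearson's r (0.74, adjusted exact permutation p = 0.0900). *Klk11* with *Cst6* had r = 0.87 over all arrays, which did not pass, and 0.12 without the 2 farthest arrays, so that relation rests on them. *Klk10*, *Klk11*, *Klk7*, *Spink5* and *Cst6* all had collagen replicate 3 as their lowest array. Among neighbours in the cluster, *Klk10* with *Klk11* had r = 0.79 and *Klk7* with *Klk8* 0.75, against 0.89 for *Klk5* with *Klk8*, which are not neighbours, and the difference was not tested.

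The count of passing pairs depends on single arrays. It was 1 without control replicate 1 or control replicate 3, 2 without control replicate 2, 3 without control replicate 4 or any of collagen replicates 1 to 3, and 5 without collagen replicate 4. Without both control replicate 3 and collagen replicate 3, the pair picked by these genes' own values, it was 0, with 30 of 36 pairs positive and a median r of 0.39, and without control replicate 4 and collagen replicate 1 it was 0, with 36 positive and a median r of 0.64. With 2 arrays left out, too few arrangements remain for a pair alone to pass after adjustment over 36 pairs. These counts of 0 therefore do not tell whether the correlations were lost.

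**Figure D4:**
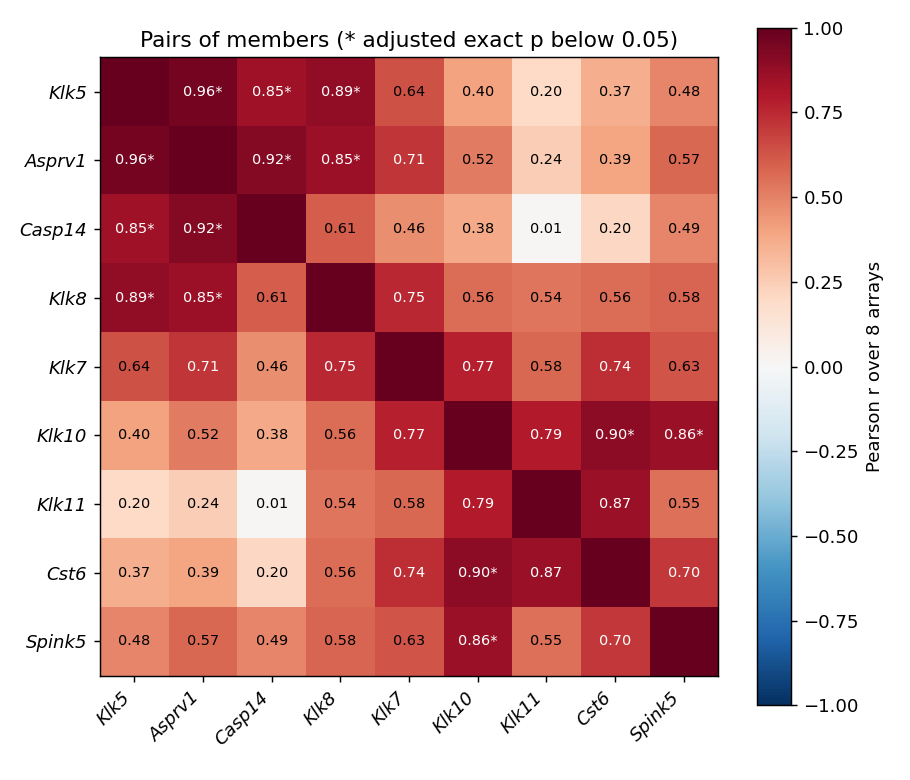
Pearson r over 8 arrays for each pair of the 9 genes (colour and printed value; an asterisk marks an adjusted exact permutation p below 0.05). All 36 pairs are positive, with values from 0.85 to 0.96 among *Klk5*, *Asprv1* and *Casp14* and of 0.90 and 0.86 between *Klk10* and the inhibitors *Cst6* and *Spink5*.

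Other cell types of the skin also varied across the arrays in which the set was low or high. Control replicate 3 and collagen replicate 3 each had 8 of the 9 genes below the gene's mean, with medians of -1.11 and -1.34 SD, and collagen replicate 4 had 8 below with a median of -0.37 SD. The mean deviation of 6 dermal fibroblast markers was highest in control replicate 3 (0.84 SD) and collagen replicate 3 (1.46 SD) and lay between -0.79 and 0.05 SD in the other arrays. Collagen replicate 1 had 8 of the 9 genes above their means, with a median of 0.85 SD, and was low in 10 skeletal muscle markers (-1.36 SD). Control replicate 4 was also low in these markers (-1.32 SD), but its median over the set was 0.07 SD. The muscle markers lay at 0.15 to 0.92 SD in the other arrays. Among these, control replicates 1 and 2 had set medians of 0.64 and 0.65 SD with muscle markers at 0.24 and 0.41 SD. The part of these cell types in the results was not tested.

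The layer that makes these enzymes was measured by its own markers. The mean of 9 granular and cornified keratinocyte markers, which include *Krt10*, *Flg* and *Lor*, was lowest in control replicate 3 (-1.14 SD), the lowest array of *Klk5*, *Klk8*, *Asprv1* and *Casp14*. In collagen replicate 3, the lowest array of *Klk7*, *Klk10*, *Klk11*, *Spink5* and *Cst6*, it was 0.04 SD. The markers were split in that array, from -0.947 SD for *Sbsn* to 1.499 SD for *Lor*. There the tested genes of corneodesmosomes and profilaggrin-like proteins ran from -1.992 SD for *Cdsn* to 0.419 SD for *Jup*. The mean of 0.04 SD therefore does not show that the layer was unchanged in that array. Basal keratinocyte markers (7 genes) stood at -0.38 SD in control replicate 3 and -0.28 SD in collagen replicate 3. Between the diets 8 of 9 granular and cornified markers were higher on the collagen diet with a median of 0.40 SD, and none passed; this direction turned after median centring, with 3 higher, 6 lower and a median of -0.13 SD, and after quantile normalization 2 were higher and 1 lower. All 8 hair follicle markers were higher with a median of 1.96 SD, 5 of them at an unadjusted p below 0.05 (5.36% of all genes) and 0 after adjustment (limma). Quantile normalization left 6 of the 8 higher, 1 of them at an unadjusted p below 0.05, and a median of 1.20 SD. As deposited, their mean ranged from -1.67 to 0.14 SD on the control diet and from 0.07 to 1.64 SD on the collagen diet.

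**Figure D5:**
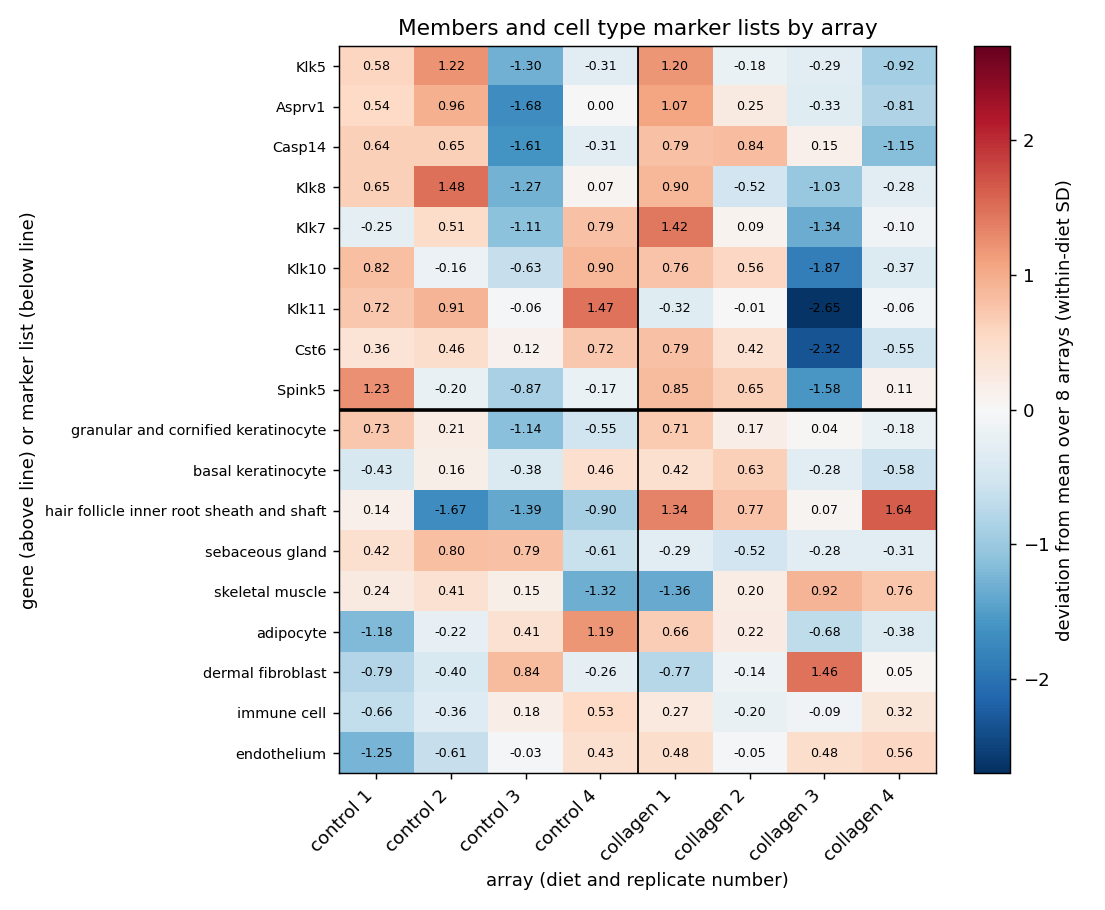
Deviation from the mean over 8 arrays in within-diet SD (colour and printed value) for the 9 genes (above the line) and the mean of 9 cell type marker lists (below it), by array (columns, diet and replicate number). Control replicate 3 and collagen replicate 3 are low in most of the 9 genes and highest in dermal fibroblast markers (0.84 and 1.46 SD).

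The genes outside the set whose pattern was most like that of its 5 measured kallikreins, by the mean Pearson r over 8 arrays, were *Tmem40* (0.82), *Fam89a* (0.82), *Slc46a2* (0.81), *Mapk13* (0.81), a stress-activated kinase, and *Tmem45a* (0.81). Each had r of at least 0.70 with every one of the 5 kallikreins, and their differences between the diets were -0.95 to -0.31 SD. By the same measure *Cst6* stood at 0.69, *Asprv1* at 0.66, *Spink5* at 0.62 and *Casp14* at 0.46, and 213, 315, 493 and 1683 of 12726 other genes were higher than these.

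Among the other kallikreins of the cluster that were tested, no difference between the diets was called. Of 7 further kallikreins listed, 5 were tested, 2 higher and 3 lower on the collagen diet with a median of -0.33 SD, and none passed. *Klk13* differed by 1.06 SD, *Klk12* by -0.94 SD and *Klk6* by -0.79 SD. Their lowest arrays differed: collagen replicate 3 for *Klk6* (-2.20 SD), collagen replicate 4 for *Klk12* (-1.69 SD), control replicate 4 for *Klk13* (-1.69 SD), and control replicate 3 for *Klk1* (-1.78 SD) and *Klk9* (-1.48 SD), the last 2 genes being named after their values were seen.

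Of 20 other proteases of the outer epidermis 18 were tested, of which 8 lay above and 10 below the control mean, the median difference being -0.06 SD; median centring left 4 above and 14 below, and quantile normalization 2 above and 11 below. None passed, and the smallest p belonged to *Pcsk6*, a proprotein convertase, at 1.59 SD (unadjusted p = 0.0544, adjusted p = 0.944, limma), *Prss27* at -1.47 SD and *Tpp1*, a lysosomal peptidase, at 1.28 SD. Of 25 other inhibitors 18 were tested, 9 on either side of 0, and their median difference was 0.07 SD. The inhibitors were led by *Serpinb7* (1.37 SD), *Serpinb1a* (0.80 SD) and *Spint1*, an inhibitor of matriptase (-0.80 SD), and none passed.

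The substrates were higher in 6 of 8 tested genes of corneodesmosomes and profilaggrin-like proteins, with a median of 0.33 SD, and none passed. *Dsg1a* and *Dsg1b*, the desmogleins of the upper epidermis, differed by 1.07 and 0.81 SD, and *Cdsn*, corneodesmosin, by -0.78 SD. Cytokines and defensins linked to kallikrein activity were lower in 4 of 5 tested genes with a median of -0.33 SD, and none passed. In this list *Il1a* differed by -0.59 SD, *Il18* by -0.47 SD and *Defb4* by -0.33 SD. In these 5 lists 0 genes had an unadjusted p under 0.05 in limma, against 5.36% of all genes tested. The lists held 5 to 18 tested genes each, too few to read this count as a result about them. With a replicate block 1 kallikrein, 1 protease and 1 inhibitor were under 0.05 unadjusted, and none passed after adjustment. Each gene named from the lists had an adjusted p of 0.944 or more in limma.

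Renormalizing the arrays changed which genes of the set were higher. After centring each array on its median, 0 of 9 genes were higher on the collagen diet, against 13.5% of all genes. Centring moves every gene of an array by the same amount, so it can turn many genes the same way. After quantile normalization 0 of the 5 genes that still varied were higher, against 31.1% of all genes, and *Klk7*, *Klk8*, *Asprv1* and *Cst6* had equal values in all arrays. The 31.1% counts genes with equal values in all arrays as not higher, so it is not a share of genes that still varied.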

How the data were processed

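Dorsal skin RNA was measured in 8 samples, each on its own oligonucleotide array, grouped by the sample titles. The authors deposited 1 log2 value per probe set and array, judged to be log2 from its range of 5.34 to 14.27; labelled RNA was made with a 3′ kit, per the labels' protocols, and R 2.7.2 is named in the submitters' processing notes. For probe summarization and array normalization, the method was not given in the sources used here. Signal over background was not used here, so the spread between arrays and their number set the precision. Arrays shared at most 0.0155% of equal values.

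Of 45101 probe sets, 64 controls were set aside and 34945 of the rest name 1 gene in the platform annotation, which can be old. The probe set with the highest mean stood for each gene, and the lowest 30% of genes by mean were left out. The test of diet was limma's moderated one (version 3.58.1, R 4.3.3), two-sided, with a variance trend on level and Benjamini-Hochberg adjustment over 12735 genes, and it was tested on simulated data. Promoter windows and gene order are from RefSeq (GRCm38.p6).

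The set, gene lists and tests were chosen with earlier results of these data known. Named genes are the set, 3 genes of smallest p per list, partners of the pairs, and the 5 genes most like the kallikreins. Same-numbered arrays varied together little over all genes tested (correlations of deviations 0.00, -0.02, 0.18 and -0.07). Only for control replicate 3 was the collagen array of the same number the one most like it. Numbers were not taken as pairs in the main test. Alternatives were other filters, normalizations, variance settings, a replicate block, the mean of all probe sets and leaving out arrays. Leaving out 2 arrays at once was chosen after seeing the data, once for low skeletal muscle genes and once because control replicate 3 and collagen replicate 3 were the lowest arrays of most genes of the set. The pair of *Klk14* with *Spink5* was not analysed.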

Additional observations from a re-analysis of the deposited data

Results flagged for a closer look

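*Klk11* in collagen replicate 3 stood at -2.65 SD, separated from the other 3 collagen arrays by 0.882 of the range of that diet, above Dixon's 95% critical value for 4 arrays. It was the 1 case among 26 groups checked (9 genes and 4 pairs on 2 diets), and chance gives about 1 in 20. The same array was the highest in dermal fibroblast markers (1.46 SD), whose part in this value was not tested.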

How the results depend on the processing

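None of the 9 genes passed an adjusted p of 0.05 under any alternative run. The replicate block gave 0 genes of the set past the threshold, a median of -0.10 SD, and *Klk11* an unadjusted p of 0.0152 (adjusted p = 0.877, limma), and it changed no call; for the pairs it could not give a p below 0.125 and gave exact p of 0.125 to 1. Over all genes 1 gene passed with the filter at 50% and 0 to 1 when 1 array was left out. After median centring *Klk7*, *Spink5*, *Asprv1* and *Casp14* turned to -0.13, -0.0076, -0.077 and -0.094 SD, 0 genes were higher, *Klk7* minus *Spink5* was -0.12 SD and 23 pairs of genes correlated. After quantile normalization *Spink5* and *Casp14* turned to -0.28 and -0.85 SD, 0 genes were higher, *Klk5* minus *Spink5* was 0.11 SD and 3 of 10 pairs correlated. The 4 genes with equal arrays had no value. For neither normalization was the share of correlated pairs over all genes computed, so these counts of pairs have no background beside them. Median centring can also add a shift shared by all genes of an array, and its part was not tested. Without control replicate 4 and collagen replicate 1, *Klk7*, *Spink5* and *Asprv1* stood at -0.22, -0.29 and -0.22 SD, with 1 gene higher and 0 correlated pairs. Without control replicate 3 and collagen replicate 3, *Asprv1* and *Casp14* stood at -0.45 and -0.18 SD, *Klk5* minus *Spink5* at -0.89 SD and *Klk7* minus *Spink5* at -0.22 SD, with 2 genes higher and 0 correlated pairs. These arrays were picked for being lowest in the set. With 2 arrays left out, a pair of genes alone could not pass after adjustment, so the counts of 0 pairs do not tell whether the correlations were lost. Leaving out 1 array moved *Klk5* between -0.65 and 0.32 SD, *Klk7* between -0.53 and 0.57, *Klk10* between -0.82 and 0.12, *Spink5* between -0.28 and 0.74, *Asprv1* between -0.66 and 0.44 and *Casp14* between -0.21 and 0.87. It gave 0 to 5 genes higher, 1 to 5 correlated pairs, -0.76 to 0.37 SD for *Klk5* minus *Spink5* and -0.52 to 0.34 SD for *Klk7* minus *Spink5*. The cause of these moves was not tested. *Klk8* (-1.24 to -0.05 SD), *Klk11* (-1.79 to -1.25 SD) and *Cst6* (-1.37 to -0.41 SD) kept their direction when 1 array was left out, and under each other alternative in which they varied.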
